A study of Mus musculus with 4 samples.

Results

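The synaptotagmins are a family of membrane proteins, several of which sense calcium in nerve terminals. Their genes Syt1, Syt2, Syt3, Syt4, Syt5, Syt6, Syt7 and Syt11 were followed here in mouse visual cortex. They are 8 of the 8252 genes that a probe set of the Affymetrix array named alone. All probe sets were taken whose single gene symbol in the platform's table was 1 of the 8, which gave 10 of 12488. Syt2 and Syt3 had 2 probe sets each and the other 6 genes 1 each. The family was chosen by the fall of Syt1 in the comparison of deprived with non-deprived cortex, so the level of Syt1 in that comparison is given as a description and not as a test. The question was whether the other members shared its fall.

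Deprived cortex was the visual cortex contralateral to a removed eye, and non-deprived cortex the visual cortex ipsilateral to it. Both came from the same treatment of wild-type C57Bl6 mice, 5 in all, which were reared in darkness from birth, lost 1 eye on postnatal day 42, then spent 4 days with normal light and dark phases and were killed on day 46. The controls were thus dark-reared and enucleated as well. Total RNA of the dissected cortex was pooled, and 2 deprived and 2 non-deprived samples were hybridised to 1 array each. How the mice were divided over the pools is not stated, so the spread between the 2 arrays of a group may be technical. Deprived cortex is not cut off from vision in this model, since in mice the remaining eye also reaches the cortex on its own side.

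Synaptotagmins are anchored in a membrane by their N-terminal end and carry a pair of C2 domains facing the cytoplasm. When an action potential lets calcium into the terminal, the C2 domains of the calcium-binding members attach to membrane and to the SNARE complex and trigger the fusion of the vesicle. Syt1, Syt2 and Syt9 are the fast sensors of synaptic vesicles, with Syt1 the main one in forebrain neurons. Syt7 and Syt3 bind calcium more tightly and act more slowly, whereas Syt4 and Syt11 lack a conserved calcium-binding residue in the first C2 domain.

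Each probe set yielded a MAS5 signal, in arbitrary units, per array, and values are given in the order array 1, array 2. The median signal was 246 and 189.9 in deprived samples, against 229.6 and 209.6 in non-deprived samples. Deprived array 1 correlated least with the others, with a mean r of 0.91 across 7458 probe sets, whereas the other 3 had 0.93 each. The neuronal genes Snap25 and Thy1 gave signals of at least 15284 and 10991 on every array. Signals are compared here between arrays for 1 probe set at a time, since probe sets differ in how well their probes bind. The exception is the summed signal of each marker list, which rests mostly on its brightest probe sets.

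The promoter windows of 5 of the 8 genes were found in RefSeq's table of the GRCm38.p6 build, 9 windows in all, each running from 250 bases before to 50 bases after an annotated transcription start. The upstream window of Syt1 and the window of Syt11 are shown because these 2 genes stood lowest relative to their spread in the deprived cortex. Those of Syt2, the other fast sensor, are shown because its groups overlapped. Each is written 5′ to 3′, and capitals mark letters that match any of 6 motifs on either strand: the cyclic AMP response element TGACGTCA and its shorter form TGACG, the AP-1 motif TGANTCA bound by Fos and Jun proteins, the Egr motif GCGNGGGCG, the GC box GGGCGG and the CCAAT box.
Syt1, upstream start, chr10:109010926-109011225, minus strand: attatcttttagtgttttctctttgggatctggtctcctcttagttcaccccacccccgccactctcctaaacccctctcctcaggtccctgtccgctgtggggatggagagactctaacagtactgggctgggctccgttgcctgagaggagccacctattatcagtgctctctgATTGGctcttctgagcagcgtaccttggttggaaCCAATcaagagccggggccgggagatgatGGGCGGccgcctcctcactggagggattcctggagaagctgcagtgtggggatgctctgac
Syt11, chr3:88772550-88772849, minus strand: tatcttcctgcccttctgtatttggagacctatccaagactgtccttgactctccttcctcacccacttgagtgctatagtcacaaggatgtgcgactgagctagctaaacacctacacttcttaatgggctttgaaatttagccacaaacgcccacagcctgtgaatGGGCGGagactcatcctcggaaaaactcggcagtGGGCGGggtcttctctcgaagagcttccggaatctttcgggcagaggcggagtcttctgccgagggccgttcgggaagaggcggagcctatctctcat
Syt2, upstream start, chr1:134646362-134646661, plus strand: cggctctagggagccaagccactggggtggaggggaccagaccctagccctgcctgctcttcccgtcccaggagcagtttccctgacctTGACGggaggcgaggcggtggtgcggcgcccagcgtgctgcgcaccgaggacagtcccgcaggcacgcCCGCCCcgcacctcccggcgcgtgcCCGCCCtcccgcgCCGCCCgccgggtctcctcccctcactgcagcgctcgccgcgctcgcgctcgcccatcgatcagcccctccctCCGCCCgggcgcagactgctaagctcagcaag
Syt2, downstream start, chr1:134709050-134709349, plus strand: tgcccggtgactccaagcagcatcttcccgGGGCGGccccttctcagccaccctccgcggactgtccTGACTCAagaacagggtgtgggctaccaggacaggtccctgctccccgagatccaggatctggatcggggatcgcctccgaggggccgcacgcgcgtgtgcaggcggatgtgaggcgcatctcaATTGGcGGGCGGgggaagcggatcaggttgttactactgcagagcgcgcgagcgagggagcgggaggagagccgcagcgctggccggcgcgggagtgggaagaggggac

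The first 4 motifs are those of factors that respond to neuronal activity, and TGACG is part of TGACGTCA. None of the 4 was found in the windows of Syt1 or Syt11. Capitals mark GC boxes in the Syt11 window and a GC box and CCAAT boxes on both strands in the upstream Syt1 window. The downstream window of Syt1, which is not shown, held no match to any of the 6 motifs. The Syt2 windows held the letters TGACG at the upstream and an AP-1 match at the downstream start. Over all 9 windows of the family, TGACGTCA and the Egr motif were found in 0, TGACG in 1, the AP-1 motif in 2, the GC box in 7 and CCAAT in 2. Of the 3 windows of Syt6, 2 overlap. Of 32841 mouse windows of the same length, TGACGTCA was found in 1.79%, TGACG in 20.8%, the AP-1 motif in 7.81%, the Egr motif in 5.55%, the GC box in 35.7% and CCAAT in 37.4%. A match, or its lack, describes the letters of these windows and nothing more.

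Syt1, the main trigger of fast transmitter release in cortex, was lower in the deprived tissue. Its signal was 899 and 785 in deprived samples, against 2945 and 3520 in non-deprived samples. The groups lay far apart, and within each group the arrays were close. The log2 fold change was -1.86 with a standard error of 0.18, or 3.64-fold lower, on the scale of log2 of the signal plus 60.6, where changes of dim probe sets come out too small. In the 4 possible pairings of arrays across the groups the log2 difference ran from -1.65 to -2.08. Without limma's mean-variance trend, Syt1 no longer passed, and 0 of the 7458 did, while 390 had an unadjusted p under 0.05 (adjusted p of Syt1 = 0.62). No second probe set naming Syt1 was on the array, so the fall could not be set beside another part of the transcript. In these bulk samples fewer cells that express Syt1 and less Syt1 RNA per cell cannot be told apart.

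**Figure D1:**
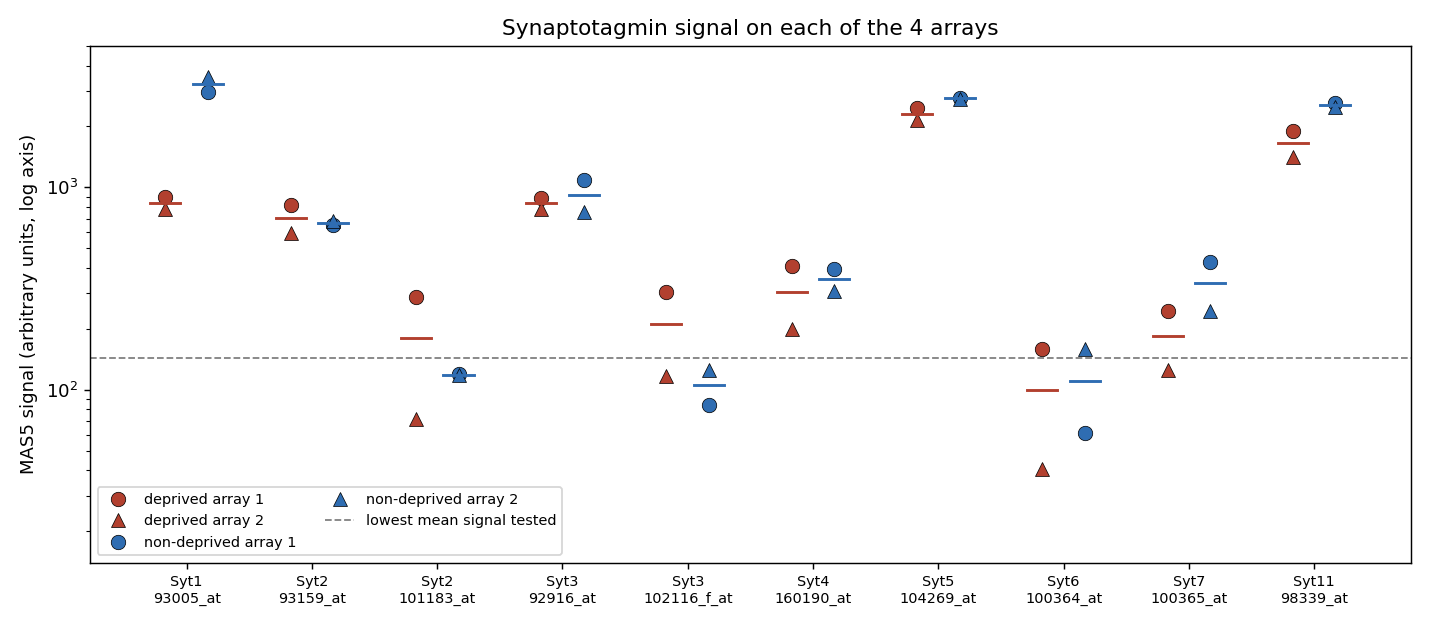
MAS5 signal (arbitrary units, log axis) of the 10 synaptotagmin probe sets on each array, with deprived arrays in red to the left of non-deprived arrays in blue; circles are arrays numbered 1, triangles arrays numbered 2, and bars the group means. Syt1 was at 899 and 785 in deprived and 2945 and 3520 in non-deprived cortex, and the gap between its groups is the widest in the plot; the dashed line at 142.9 is the lowest mean signal that was tested.

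Of the 10 probe sets, 9, for 7 genes, had a mean signal over all 4 arrays of at least 142.9, the 40th percentile, and were tested. Past an adjusted p of 0.05 in limma, 1 of the 9 fell, that of Syt1, and 0 rose. Over all tested probe sets 0.107% fell and 0% rose. The Syt1 call belongs to the contrast that chose the family, so nothing is read from the count. Of the other 8 tested probe sets 0 passed, 5 lay below 0 and 3 above, and 1 of the 8 had an unadjusted p under 0.05, against 5.43% of all tested. Their median log2 fold change was -0.17, beside 0.0015 over all tested probe sets. The median of all 9 was -0.24.

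Syt2, the fast sensor of hindbrain synapses and of fast-spiking inhibitory neurons, was measured by 2 probe sets. The brighter gave 821 and 596 in deprived samples, against 655 and 685 in non-deprived samples. The non-deprived values lay between the deprived ones. Its log2 fold change was 0.06 with a 95% interval from -0.44 to 0.56 (limma, adjusted p = 0.999). The dimmer gave 289 and 72.1 in deprived samples, against 119.2 and 117.8 in non-deprived samples. Here too the deprived arrays spanned the non-deprived ones, and the interval, from -1.10 to 1.63, was wide. Parvalbumin, the marker of the fast-spiking neurons, had opposite signs at its probe sets. The log2 fold change of Pvalb was -0.17 at the brighter and 0.62 at the dimmer (limma, adjusted p = 0.999 and 0.988).

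Syt5, a calcium-binding member found on synaptic and dense-core vesicles, had a bright and even signal. It was 2479 and 2150 in deprived samples, against 2767 and 2747 in non-deprived samples. Both deprived arrays lay below both non-deprived ones, by a small margin. The log2 fold change was -0.25 with a standard error of 0.17, or 1.19-fold lower, and the 95% interval ran from -0.61 to 0.11 (limma, adjusted p = 0.99). The narrow interval made Syt5 the member with the most closely bounded difference. Older papers exchange the names of Syt5 and Syt9, and the name here is that of the platform's table.

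Among the slower, high-affinity sensors, Syt7, which serves asynchronous release and facilitation, had the lowest estimate after Syt1. Its signal was 246 and 124.6 in deprived samples, against 430 and 244 in non-deprived samples. Deprived array 1 was marginally above non-deprived array 2, so the groups just overlapped. The log2 fold change was -0.70 with a standard error of 0.43, and the 95% interval ran from -1.63 to 0.23 (limma, adjusted p = 0.99). A dim signal and a spread of 0.73 between the deprived and 0.69 between the non-deprived arrays (log2) left this interval wide. Of the pairs of arrays 3 were lower, the lowest at -1.41, and 1 stood at 0.0077.

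Syt3, a high-affinity sensor described in rodents on both sides of the synapse, gave opposite signs at its 2 probe sets. The brighter had 890 and 786 in deprived samples, against 1089 and 753 in non-deprived samples, a log2 fold change of -0.11 with an interval from -0.60 to 0.38 (limma, adjusted p = 0.999). The dimmer had 305 and 117.4 in deprived samples, against 84.3 and 125.8 in non-deprived samples, a log2 fold change of 0.63 with an interval from -0.63 to 1.90 (limma, adjusted p = 0.999). In both, the groups overlapped. The name of the dimmer probe set carries the suffix f, with which the manufacturer marks probes shared by a family of similar sequences, so part of its signal may come from other transcripts.

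Syt6, known best from the acrosome reaction of sperm, had a mean signal of 105 and was not tested because it was dim. It gave 159.5 and 40.4 in deprived samples, against 61.1 and 158.9 in non-deprived samples. The groups overlapped fully, and the value is given without a test. Just inside the limit of 142.9 lay the dimmer probe sets of Syt2 and Syt3, with mean signals of 149.5 and 158.1.

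The remaining members are those with an altered first C2 domain. Syt11, a regulator of vesicle retrieval and a substrate of the ubiquitin ligase parkin, had 1905 and 1418 in deprived samples, against 2601 and 2494 in non-deprived samples. Both deprived arrays lay below both non-deprived ones. Syt11 had a log2 fold change of -0.61 with a standard error of 0.18, or 1.53-fold lower, and a 95% interval from -1.02 to -0.21. It was the 1 other member with an unadjusted p under 0.05, and it did not pass over all probe sets (limma, adjusted p = 0.51). Without deprived array 1 it was at -0.82, and without deprived array 2 at -0.41. Each of these values rests on 1 deprived array, which has no spread of its own. With the replicate number as a block, a fit that called 0.536% of all tested probe sets and no synaptotagmin besides Syt1, the adjusted p of Syt11 was 0.13 (limma).

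Syt4, itself induced by activity in rodent neurons and found on dense-core vesicles, had 408 and 198.7 in deprived samples, against 396 and 308 in non-deprived samples. The groups overlapped. Its log2 fold change was -0.24 with an interval from -1.04 to 0.56 (limma, adjusted p = 0.999), and without deprived array 2 it was 0.19.

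**Figure D2:**
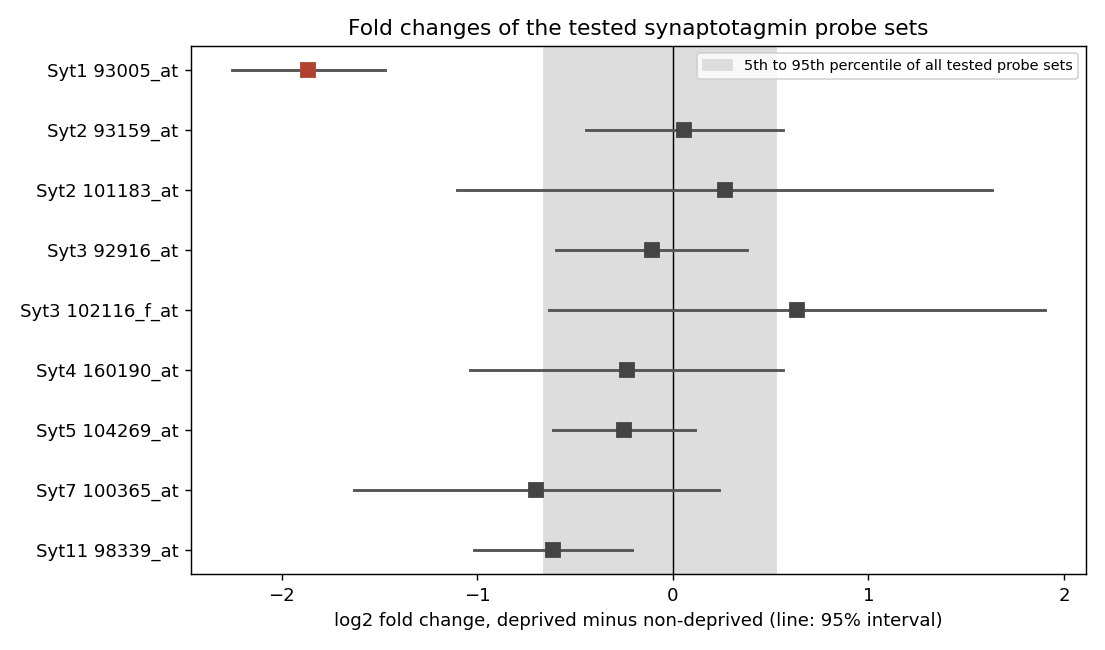
Log2 fold change, deprived minus non-deprived, of the 9 tested synaptotagmin probe sets (squares, Syt1 in red) with 95% intervals from limma (lines); the grey band holds the 5th to 95th percentile of all tested probe sets, from -0.66 to 0.53. Syt1 stands at -1.86 outside the band, as do Syt7 at -0.70 and, on the other side, the dimmer Syt3 probe set at 0.63. Besides Syt1, the intervals of 7 of the other 8 hold 0, the exception being Syt11 at -0.61.

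Set beside Syt1, the 95% intervals of all 8 other tested probe sets ended above -1.86, the estimate of Syt1. Of these 8, 7 also ended above the upper end of the Syt1 interval, -1.47, the exception being Syt7 with a lower end of -1.63. These intervals are not adjusted for the number of probe sets, and Syt1 was chosen for its low value, so the difference between members was not tested. The bright probe sets of Syt5 and Syt11 had standard errors of 0.17 and 0.18, about that of Syt1, and both had smaller estimates. For Syt7 the interval held both 0 and values inside the Syt1 interval. In the 3 tested probe sets whose groups did not overlap, Syt1, Syt5 and Syt11, the deprived arrays were the lower ones; leaving out Syt1, that is 2 of 8, and 17.1% of all tested probe sets showed that order. A fall of at least 1.5-fold in all 4 pairs, seen in 1.58% of all tested, was met by Syt1 and by no other member.

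**Figure D3:**
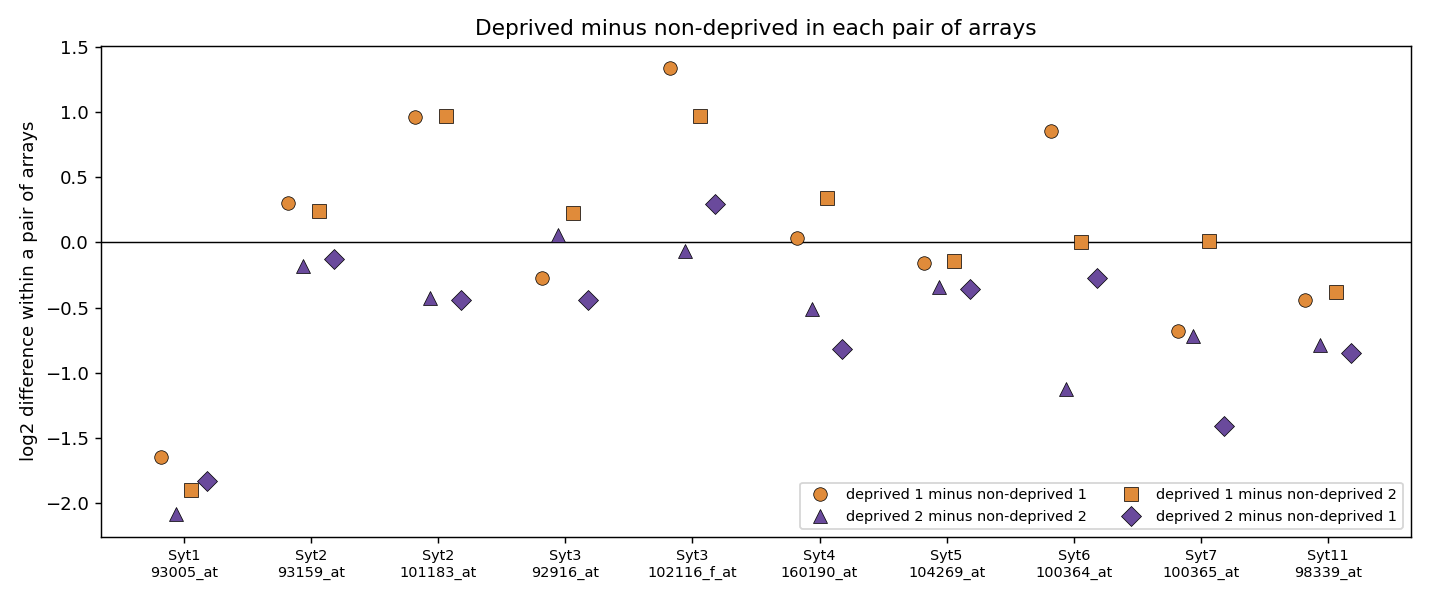
Log2 difference, deprived minus non-deprived, of each synaptotagmin probe set in the 4 pairs of arrays; orange marks pairs with deprived array 1 and purple those with deprived array 2. All pairs of Syt1 lie between -1.65 and -2.08, and the purple marks lie below the orange ones for all probe sets but those of Syt1 and the brighter of Syt3.

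The 2 deprived arrays differed from each other in the same direction throughout the family. Deprived array 2 gave less than deprived array 1 in all 9 tested probe sets, and in Syt6, while it did so in 52.1% of all tested probe sets. It gave the lowest of the 4 signals in 7 of the 9, against 27.3% of all tested. Deprived array 1 gave the highest of the 4 in 4 of the 9, against 31.9% of all tested. The 3 dim probe sets of members, with mean signals under 200 and untested Syt6 among them, were all highest on deprived array 1. For Syt6 the margin was small, 159.5 against 158.9 on non-deprived array 2. Of the 969 tested probe sets under 200, 45.4% were highest on deprived array 1. For Syt2 and Syt4 the sign of the difference from the non-deprived arrays therefore turned with the deprived array used, whereas for Syt1, Syt5 and Syt11 it did not.

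Signs of RNA integrity moved with the groups. For the actin control, 5′ signal over 3′ signal was 0.544 and 0.463 in deprived samples, against 0.638 and 0.632 in non-deprived samples. That of Gapdh was 0.745 and 0.689 in deprived samples, against 0.875 and 1.07 in non-deprived samples. The ratios were thus lower on both deprived arrays, as were Syt1, Syt5 and Syt11, and lowest on deprived array 2. Their part in these differences was not tested.

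Markers of cell types showed how the dissected tissue varied. Of 9 tested neuronal markers 7 lay below 0, with a median log2 fold change of -0.25, and their summed signal was 47010 and 57992 in deprived samples, against 54672 and 58568 in non-deprived samples, so the groups overlapped. Deprived array 2, the lowest for most synaptotagmins, was thus not the lowest for this sum. The sum rests mostly on bright probe sets such as those of Snap25 and Thy1. Among the neuronal markers Map2, a dendritic microtubule protein, passed with the replicate block alone, with a log2 fold change of -1.79 (limma, adjusted p = 0.20, or 0.037 with the block). The summed signal of 5 tested oligodendrocyte markers was 13307 and 11973 in deprived samples, against 10934 and 9897 in non-deprived samples, without overlap, with a median of 0.40 and 4 of 5 above 0. The markers are counted at the brightest probe set of each gene, and those of Mobp, a myelin protein, disagreed, with log2 fold changes of 0.47 at the brightest and -0.59, -0.64 and -0.14 at its others, of which the first and the second had an unadjusted p under 0.05 as well. Astrocyte and endothelial markers and those of neighbouring striatum, thalamus and hippocampus had medians of -0.025, 0.053 and 0.096, and their sums overlapped between groups. The sums of microglia markers, with a median of -0.043, were 4776 and 5046 in deprived samples, against 5379 and 5095 in non-deprived samples, without overlap but by a small margin. Those of inhibitory neuron markers were 15328 and 18661 in deprived samples, against 18750 and 20473 in non-deprived samples. They too did not overlap, and the median was -0.20, with 6 of 7 below 0. How often sums of other genes keep the groups apart was not counted. No tested marker was at 0, and 0 markers passed without the block (limma). An unadjusted p under 0.05 was reached by 4 that were lower and 1, Mobp, that was higher. Over all tested probe sets 3.66% were lower and 1.77% higher at that level, dim ones included, and nothing is read from the marker counts. A dimmer probe set of the microglia marker Csf1r stood at -0.83 and its brightest at 0.10 (limma, adjusted p = 0.685 and 0.999), the dimmer with an unadjusted p under 0.05. Their part in the synaptotagmin values was not tested.

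The genes that work with synaptotagmins were taken from 6 lists of 117 genes, of which 63 were named on the array and 56 tested, each at its brightest probe set. Past the adjusted threshold in limma 0 of the 56 fell and 0 rose, while an unadjusted p under 0.05 was reached by 9 that were lower and 0 that were higher. That is 16.1% lower, beside 3.66% lower and 1.77% higher over all tested probe sets. The median of the 56 was -0.16, with 38 below 0 and 18 above. Both deprived arrays lay below both non-deprived ones in 16 of the 56, or 28.6%, beside 17.1% of all tested, and above both in 6 of the 56, beside 15.1%. The lists were chosen with earlier results of these data known. The shares over all tested count every probe set, dim ones included, and not the brightest per gene. These shares are therefore given as a description and not as a test.

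Proteins that share the vesicle with synaptotagmin had the lowest median of these lists, -0.37 over 9 genes, 7 of them below 0. Syngr1, a tetraspan vesicle protein, had 601 and 685 in deprived samples, against 1004 and 1451 in non-deprived samples, a log2 fold change of -0.85 (limma, adjusted p = 0.37). Syn2, a synapsin that holds vesicles in their clusters, had 1463 and 1687 in deprived samples, against 2163 and 2766 in non-deprived samples, at -0.62 (limma, adjusted p = 0.50). Syp, the abundant vesicle protein synaptophysin, stood at -0.36 and Slc32a1, the vesicular GABA transporter, at -0.30. In each of these 4 the groups did not overlap. Syp, Snap25, Slc32a1, Sst and Npy stand on the marker lists as well, so these lists are not independent.

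The SNARE proteins and their partners, which synaptotagmin engages at fusion, had a median of -0.17, with 7 of 10 genes below 0. Cplx1, the complexin that clamps and then promotes fusion together with Syt1, had 2639 and 3076 in deprived samples, against 3831 and 4816 in non-deprived samples, at -0.58 (limma, adjusted p = 0.53). Nsf, the ATPase that takes spent SNARE complexes apart, had 1123 and 3376 in deprived samples, against 3253 and 5707 in non-deprived samples, at -1.12 (limma, adjusted p = 0.67). The Nsf groups overlapped, and Nsf passed with the replicate block alone (adjusted p = 0.012). Napa and Napb, the adaptors that bring Nsf to the complex, and the complexin gene Cplx2 stood at 0.30, 0.25 and 0.23, each with both deprived arrays above both non-deprived ones, and none passed. Snap25 and Stx1a, which form the SNARE complex on the plasma membrane, gave -0.25 and -0.05. Vamp2, the vesicle SNARE, gave -0.09 at the brighter of its probe sets and -1.20 at the other (limma, adjusted p = 0.999 and 0.065).

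**Figure D4:**
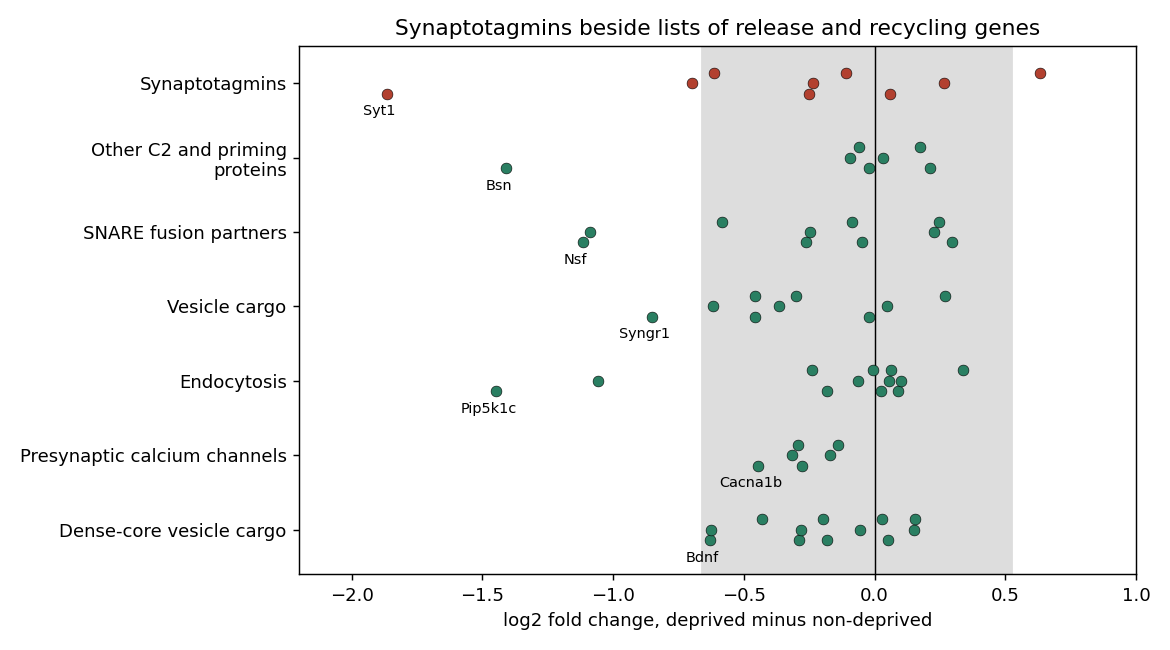
Log2 fold change, deprived minus non-deprived, of the 9 tested synaptotagmin probe sets (red) and of the 56 tested genes of 6 lists at their brightest probe set (green), with the lowest of each row named; the grey band holds the 5th to 95th percentile of all tested probe sets. Syt1 at -1.86 is the lowest point of the plot, followed by Pip5k1c at -1.45 and Bsn at -1.41.

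Other C2-domain and priming proteins had a median of -0.02 over 7 genes, 4 below 0 and 3 above. Bsn, the active zone scaffold bassoon, was dim and stood at -1.41 with 159.4 and 49.7 in deprived samples, against 334 and 372 in non-deprived samples (limma, adjusted p = 0.64). Cadps had both deprived arrays above both non-deprived ones at its brighter probe set. It stood at 0.21 there and at -0.05 at the other (limma, adjusted p = 0.999 for each). Doc2b, a C2-domain sensor of spontaneous release, and Unc13b, a priming factor, gave -0.06 and 0.17. Clathrin adaptors and other proteins that retrieve synaptotagmin from the plasma membrane had a median of 0.01 over 12 genes, 6 below 0 and 6 above. Pip5k1c, the kinase that makes the membrane lipid bound by the C2 domains, stood at -1.45, and Ap2b1, an adaptor subunit, at -1.06 (limma, adjusted p = 0.44 and 0.62). Bin1 had both deprived arrays above both non-deprived ones at its brighter probe set. It stood at 0.34 there and at -0.23 at the other (limma, adjusted p = 0.965 and 0.999). Ap2m1 and Dnm1, the adaptor subunit that binds cargo and the dynamin of nerve terminals, gave 0.05 and 0.06.

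All 6 tested presynaptic calcium channel genes, whose products supply the calcium that synaptotagmins sense, lay below 0, as did 49.8% of all tested probe sets, and their median was -0.28. Cacna1b, the pore of N-type channels, was the lowest at -0.45, with 640 and 787 in deprived samples, against 1007 and 971 in non-deprived samples (limma, adjusted p = 0.91). Cacna1a, the pore of P/Q-type channels, gave -0.29. Dense-core vesicle cargo, released through Syt4-bearing and Syt7-bearing vesicles among others, had a median of -0.19 over 12 genes. Bdnf, a neurotrophin, stood at -0.63 and Chga, the granule protein chromogranin A, at -0.43 (limma, adjusted p = 0.46 and 0.83). A dimmer probe set of Chga went the other way, at 0.53 (limma, adjusted p = 0.999).

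The tested probe sets most like that of Syt1 over the 4 arrays were those of Tollip, Src, Rgs4, Pspn and Map2. Likeness was the root mean square difference between log2 values centred on each probe set's mean, and it was 0.048 for Tollip, 0.13 for Src, 0.14 for Rgs4, 0.16 for Pspn and 0.20 for Map2. All 5 were dimmer than Syt1, with mean signals of 313, 254, 396, 434 and 306 in that order, against 2037. Their adjusted p was 0.14, 0.21, 0.077, 0.039 and 0.20 in the same order (limma), so Pspn alone passed. Tollip, an adaptor of Toll-like receptor signalling, had 115.6 and 82.7 in deprived samples, against 488 and 564 in non-deprived samples. Its other, brighter probe set had a log2 fold change of 0.03, so that gene's 2 probe sets did not move alike. With 4 arrays in 2 groups, likeness rests mostly on the size of the group difference.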

How the data were processed

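Total RNA of pooled visual cortex was labelled with biotin and read on 1-colour Affymetrix arrays. What the authors deposited is a linear intensity per probe set. Per the submitters' processing notes it was computed with MAS5, of which neither the version nor detection calls nor a scaling target is given in the sources used here.

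Arrays were brought to a common 2% trimmed mean, which moved no array by more than 0.00893%. The 20th percentile of the mean signals, 60.6, was added, log2 was taken, and 66 control probe sets and those with a mean below the 40th percentile, 142.9, were left out. Deprived samples were set against non-deprived ones in limma 3.58.1 (R 4.3.3), using lmFit and eBayes with its trend option, over 7458 probe sets. Tests were two-sided, and p-values were adjusted by Benjamini-Hochberg with a threshold of 0.05. The number of arrays limits the precision: an exact permutation test of 2 arrays against 2 cannot give a two-sided p under 0.333. The fit was tested on simulated data.

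The design text speaks of additional cross-animal comparisons, a wording that implies, but does not state, that same-numbered arrays share animals. Arrays that share a number deviated together from their groups, with r = 0.27 over probe sets, which does not tie a number to an animal. The block was kept as an alternative.

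Named were all probe sets of the 8 members whatever their values, the 5 most like Syt1, and from each list up to 4 genes with the smallest p. Further list genes (Napa, Napb, Cplx2, Mobp, Csf1r, Snap25, Stx1a, Vamp2, Doc2b, Ap2m1, Dnm1, Cacna1a among them, and Thy1 and Pvalb) were named for their role after their values were seen. The members and lists were chosen with earlier results of these data known. Gene symbols came from the platform's annotation table, brought up to date through a RefSeq table of GRCm38.p6. Alternatives changed the normalization, the pseudocount, the filter, the variance model, the block and the arrays used.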

Additional observations from a re-analysis of the deposited data

How the results depend on the processing

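The value of Syt1, whose fall chose the family and which is given as a description, ranged from -1.99 to -1.74 over the 12 alternatives. Without the mean-variance trend its value of -1.86 did not pass (adjusted p = 0.62). In the fits that kept all 4 arrays, the count of synaptotagmin probe sets past the threshold was 1, except without the trend, where it was 0. Calls of synaptotagmins with 1 array left out are not counted here, since a lone array has no spread of its own. Over all 12 alternatives the value of Syt11 ran from -0.82, without deprived array 1, to -0.41, without deprived array 2. In the alternatives that kept all arrays Syt11 did not pass. With the replicate block Syt1 was at -1.86 (adjusted p = 2.2e-04), and the block changed no call of a synaptotagmin. Over all tested probe sets the count of 8 changed to 3 when arrays were scaled to a common median, to 1 with quantile normalization, to 0 without the trend (390 at an unadjusted p under 0.05) and to 40 with the replicate block, and ran from 5 to 90 with 1 array left out. In these last fits the lone array is taken to vary as the other group does. For the rest the cause was not tested. Single arrays decided the sign for 5 probe sets, 4 of them tested. The brighter and dimmer Syt2 probe sets ran from -0.15 to 0.27 and from -0.43 to 0.96 with 1 array left out, each below 0 without deprived array 1. The brighter Syt3 probe set ran from -0.36 to 0.14, above 0 without non-deprived array 1, and Syt4 from -0.66 to 0.19, above 0 without deprived array 2. Untested Syt6 ran from -0.69 to 0.43, above 0 without deprived array 2 or non-deprived array 2. Syt6 could be tested without a filter (adjusted p = 1), and the filter at the 60th percentile left 6 of the probe sets. The dim probe sets of Syt7, Syt2 and Syt3 had the widest intervals of the family.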

Other observations

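The array also named relatives of the 8 genes. Syt17, a synaptotagmin of the Golgi and of axon growth in rodents, had 528 and 497 in deprived samples, against 463 and 586 in non-deprived samples, a log2 fold change of -0.02 (limma, adjusted p = 0.999). The fast sensor Syt9 was too dim to test, with 224.9 and 9.20 in deprived samples, against 76.4 and 12.3 in non-deprived samples. Syt10, which controls the release of insulin-like growth factor in mouse olfactory neurons, had 150.6 on deprived array 1 and at most 41.7 on each of the other 3, and was not tested either. Syt8 gave 93.5 and 32.3 in deprived samples, against 58.7 and 45.7 in non-deprived samples. In each of these 3 dim genes deprived array 1 gave the highest signal of the 4, as in the dim members. Sytl4, a synaptotagmin-like gene, went the other way, with 2 dim probe sets that were both highest on non-deprived array 1, at 207 and 64.6. The brighter had 53.2 and 83.7 in deprived samples, against 207 and 88.3 in non-deprived samples, and the dimmer 38.2 and 19.5 in deprived samples, against 64.6 and 19.8 in non-deprived samples.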
